A study of Mus musculus with 15 samples.

Results

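A set of 10 genes commonly read as marks of macrophages, monocytes and dendritic cells were followed in mouse small-intestinal epithelium given RANKL, the TNF-family cytokine that drives the formation of M cells. They are Csf1r, Cx3cr1, Itgam, Itgax, Cd14, Tyrobp, Fcer1g, Cd68, Lyz2 and Cd74. They were chosen by name, with earlier results of these data known, and all 10 were found among the 19938 genes measured. The samples were epithelial cells peeled with EDTA from the small intestine of wild-type BALB/c mice 10 weeks of age. The 3 controls received no agent, and 4 groups of 3 arrays received the GST-RANKL fusion protein by the intraperitoneal route, with time points of 1, 2, 3 and 4 days. No group with GST alone was analysed here, so the effects of GST, of the injections and of RANKL cannot be told apart. Replicates are labelled only by number, so p-values here describe only how these samples spread, which may be technical variation.

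Macrophages and dendritic cells are sentinel cells that sit mostly in the connective tissue under the gut epithelium and, in lymphoid follicles, in the pocket beneath M cells. Csf1r passes on the survival signal of its ligands CSF1 and IL-34. Itgam and Itgax pair with the shared chain Itgb2 to make adhesion receptors. Tyrobp and Fcer1g are membrane adaptors whose cytoplasmic motif, the ITAM, recruits the kinase Syk. RANKL acts on myeloid precursors as well, since it makes them into osteoclasts, and M cells share some of their genes with leukocytes. The question was whether the myeloid genes rise with the M cell programme or stay flat.

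Of the 10 genes, 1 was called higher and 1 lower, each on 1 day only, and the other 8 did not pass the test on any day. Itgam, the alpha chain of the complement receptor CR3, stood 1.98-fold above control on day 2, and Csf1r was 1.28-fold lower on day 1. On the log2 scale the median change of the 10 genes was -0.14 on day 1, -0.04 on day 2, 0.10 on day 3 and 0.00 on day 4. Over all genes it was -0.01, -0.02, -0.01 and 0.01. Calls in the text rest on limma, with Benjamini-Hochberg adjusted p-values over all genes and a threshold of 0.05. It was passed by 3.94% of all genes on day 1, 2.57% on day 2, 2.96% on day 3 and 0.908% on day 4, so 1 of 10 on days 1 and 2 and 0 of 10 on days 3 and 4 lie near what all genes show. By direction, 1.94% of all genes were called lower on day 1 and 1.52% higher on day 2. A looser reading is whether all 3 RANKL arrays lie beyond all 3 controls. On day 1 this held for 1 member below the controls (8.51% of all genes). On day 2 it held for 2 above (8.09%) and 2 below (9.44%), on day 3 for 2 above (12.3%) and 1 below (9.9%), and on day 4 for 1 above (12.1%) and 2 below (6.16%). At an unadjusted p under 0.05 by limma there were 1, 3, 1 and 3 members on the 4 days. The share of all genes at that threshold was not counted, so no excess can be read from these counts. A moderated F test over the 4 days called 2 of 10, Itgam (adjusted p = 0.0112) and Csf1r (0.018), against 3.6% of all genes. That count was 1 without RANKL day 1 replicate 1 and 3 without RANKL day 1 replicate 2.

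**Figure D1:**
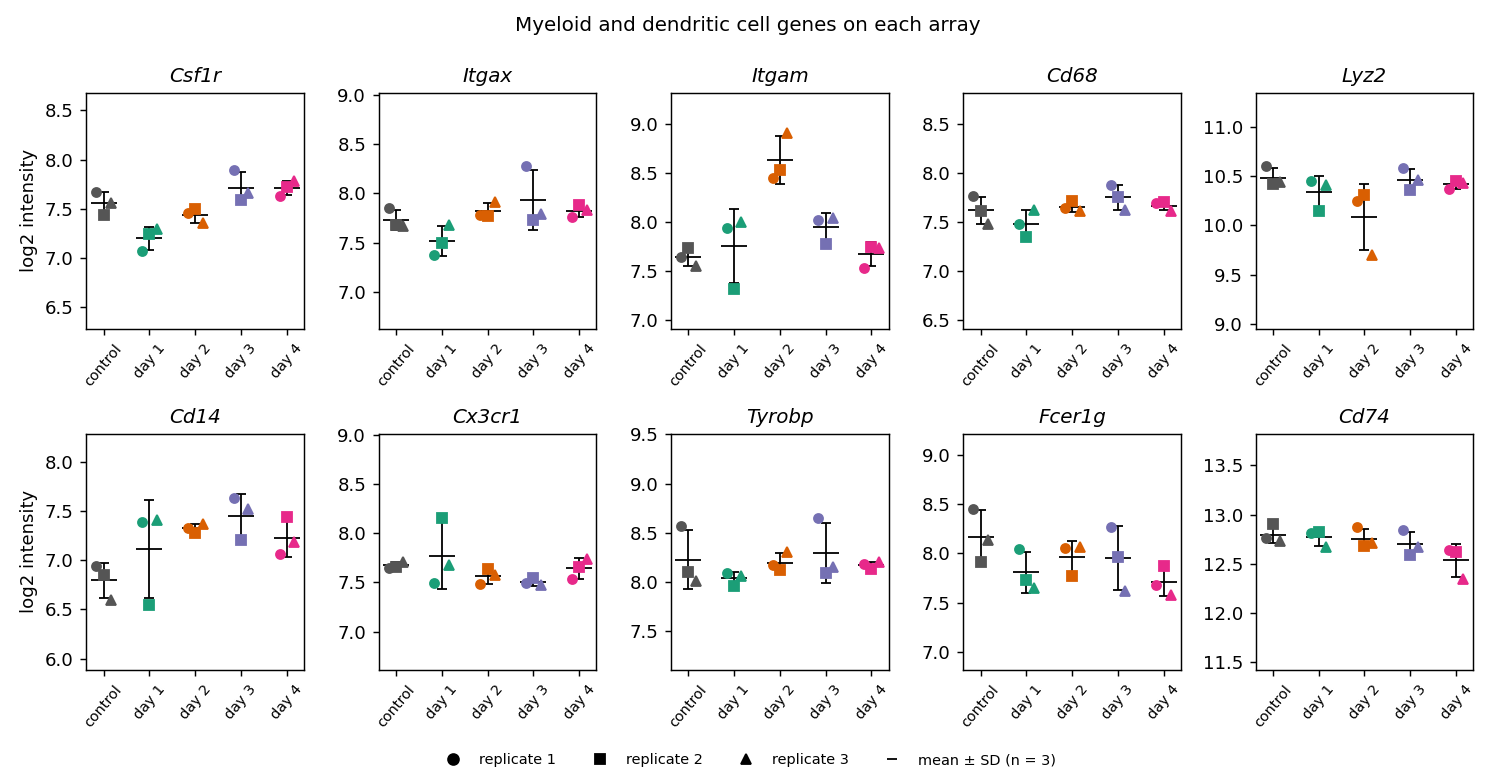
Log2 intensity of the 10 genes (vertical axis, the same height in log2 units in every panel) in controls and on RANKL days 1 to 4; each symbol is 1 array and bars are the mean ± SD of 3. Itgam stands at 8.45 to 8.91 on day 2 against 7.55 to 7.74 in controls, while Cd74 stays between 12.34 and 12.90 on all arrays.

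Itgam and Itgax lie next to each other as protein-coding genes in the RefSeq annotation of GRCm38.p6, on chromosome 7 at 128062640 to 128118491 and 128129526 to 128150657, and only the first was called. Their promoters are shown from RefSeq, 250 bases up to the start that the promoter table uses, 5′ to 3′ on the plus strand. For Itgax that start lies inside the outer bounds just given, so the end of its stretch falls within the gene as annotated. Capitals mark the letters GAGGAAG, the purine-rich box bound by the Ets factors PU.1 (Spi1) and Spi-B (Spib), the latter needed for M cell development.
Itgam, chr7:128062390-128062639: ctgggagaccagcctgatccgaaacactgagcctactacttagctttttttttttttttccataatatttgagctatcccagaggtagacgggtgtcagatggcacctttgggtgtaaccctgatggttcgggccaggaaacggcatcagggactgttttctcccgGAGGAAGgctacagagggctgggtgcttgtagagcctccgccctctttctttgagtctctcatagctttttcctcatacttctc
Itgax, chr7:128129300-128129549: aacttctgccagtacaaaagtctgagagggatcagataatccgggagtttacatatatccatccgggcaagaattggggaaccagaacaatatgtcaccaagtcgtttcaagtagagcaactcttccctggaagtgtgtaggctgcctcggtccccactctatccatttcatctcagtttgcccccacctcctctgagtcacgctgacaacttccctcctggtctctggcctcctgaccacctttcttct
The Itgam stretch holds GAGGAAG once, 84 to 78 bases before the start, and the Itgax stretch does not hold these 7 letters. Shorter or variant forms of the box were not searched. Searched on both strands in windows of 300 bases, from 250 before to 50 after the start, GAGGAAG was found in 13.6% of 32851 promoters. The table held a window for 6 of the 10 genes (Itgam, Itgax, Cx3cr1, Cd68, Lyz2 and Fcer1g), and only that of Itgam had a match, with a further one on the other strand 32 to 38 bases after the start. The longer form GAGGAAGT, which contains the first, was found in 3.2% of promoters and in 0 of these 6. A match is a run of letters and does not show binding.

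Itgam read 7.64, 7.74 and 7.55 in control replicates 1 to 3 and 7.94, 7.32 and 8.0 on day 1. On day 2 it read 8.45, 8.53 and 8.91. All 3 day 2 arrays lay above every other array of the series, and the largest day 2 value belonged to replicate 3. Day 3 gave 8.02, 7.78 and 8.04, above all controls (0.30, adjusted p = 0.4), and day 4 gave 7.53, 7.75 and 7.73, which overlapped them. The day 2 difference from control was 0.99 ± 0.16 in log2 (SE, n = 3 in each group; 95% interval 0.64 to 1.34; limma adjusted p = 0.00418). It was called in all 25 refits, at 0.85 to 1.08. By group mean the order was day 2 (8.63 ± 0.24, SD), day 3 (7.94 ± 0.14), day 1 (7.75 ± 0.38), day 4 (7.67 ± 0.12) and control (7.64 ± 0.09). The lowest pair in this order, day 4 and control, differed by 0.03 (adjusted p = 0.973). Between days the difference was 0.88 from day 1 to day 2 (adjusted p = 0.0531) and -0.68 from day 2 to day 3 (adjusted p = 0.55, unadjusted 0.00097). Neither step was called, in comparisons where 0.201% and 0.0% of all genes were. From day 3 to day 4 no member was called either (0.015% of all genes). A further 3 probe sets carry Itgam together with Rpl35 and were not used.

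Itgb2, the beta chain that Itgam needs to reach the cell surface, did not show such a change. It read 7.44 to 7.74 on day 2 against 7.49 to 7.67 in controls, a difference of -0.02 (adjusted p = 0.983). Itgax, the alpha chain of CR4, ran from 7.37 to 8.28 over the 15 arrays. Its 4 differences from control lay between -0.22 and 0.20, with 95% intervals reaching from -0.48 to 0.47. Its highest value, 8.28, was that of day 3 replicate 1.

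Csf1r read 7.67, 7.44 and 7.56 in controls and 7.07, 7.24 and 7.29 on day 1. All day 1 arrays lay below all controls, as did 8.51% of genes on that day. Later values were 7.46, 7.50 and 7.35 on day 2, 7.89, 7.59 and 7.66 on day 3, and 7.63, 7.72 and 7.78 on day 4. These overlapped the controls on each of the 3 days. The day 1 difference was -0.36 ± 0.09 (SE, n = 3; limma adjusted p = 0.0458). Its call was lost without control replicate 1 (0.151) or 3 (0.129), without RANKL day 1 replicate 1 (0.152), 2 (0.0563) or 3 (0.0539), RANKL day 2 replicate 1 (0.0661) or 2 (0.0615), RANKL day 3 replicate 3 (0.0634), or RANKL day 4 replicate 1 (0.0588), 2 (0.0652) or 3 (0.058), by the same test. The ligand genes of the receptor were not called on any day. Csf1 differed by 0.35 on day 1 (adjusted p = 0.256) and Il34 by -0.02 (adjusted p = 0.976).

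Cx3cr1, the receptor for the epithelial chemokine CX3CL1, read 7.65 to 7.71 in controls, the narrowest control range of the 10 genes. On day 1 it read 7.49, 8.15 and 7.68, the value of 8.15 on replicate 2 being its highest on any array. Days 2, 3 and 4 gave 7.48 to 7.64, 7.47 to 7.54 and 7.53 to 7.74. The differences from control lay between -0.18 and 0.10, and none was called (adjusted p from 0.565 to 0.963). Its ligand gene Cx3cl1 ran from 9.52 to 10.30 and was not called either.

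Cd14, the co-receptor that hands bacterial lipopolysaccharide to TLR4, had a mean above control on every day without being called. Controls read 6.94, 6.85 and 6.60, and day 1 read 7.39, 6.54 and 7.41. Day 2 gave 7.33, 7.28 and 7.37, day 3 gave 7.63, 7.21 and 7.52, and day 4 gave 7.06, 7.44 and 7.19. From day 2 on every RANKL array lay above every control array, and on day 1 only replicate 2 did not. The differences were 0.32 ± 0.20 on day 1, 0.53 ± 0.20 on day 2, 0.66 ± 0.20 on day 3 and 0.44 ± 0.20 on day 4 (SE, n = 3). Their limma adjusted p-values were 0.532, 0.245, 0.0957 and 0.501.

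One array bears on Cd14 and on other members. RANKL day 1 replicate 2 had the narrowest interquartile range of the deposited log2 values, 1.95 against 2.26 to 2.55 on the other arrays. Its log2 median was the highest, 7.38 against 7.20 to 7.27. Itgam had its lowest value there (7.32) and Cx3cr1 its highest (8.15). Without this array Cd14 was called on day 1 (0.61, limma adjusted p = 0.0213), day 2 (0.53, 0.0299) and day 3 (0.67, 0.00788), and on day 1 it then took the place of Csf1r as the called member. On day 4 it was not called in any of the 25 refits. The partners of Cd14 were not called: Tlr4 differed from control by -0.49 to -0.13 over the 4 days, and Ly96, the lipid-binding subunit of that receptor, differed by 0.92 on day 2 (adjusted p = 0.204).

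**Figure D2:**
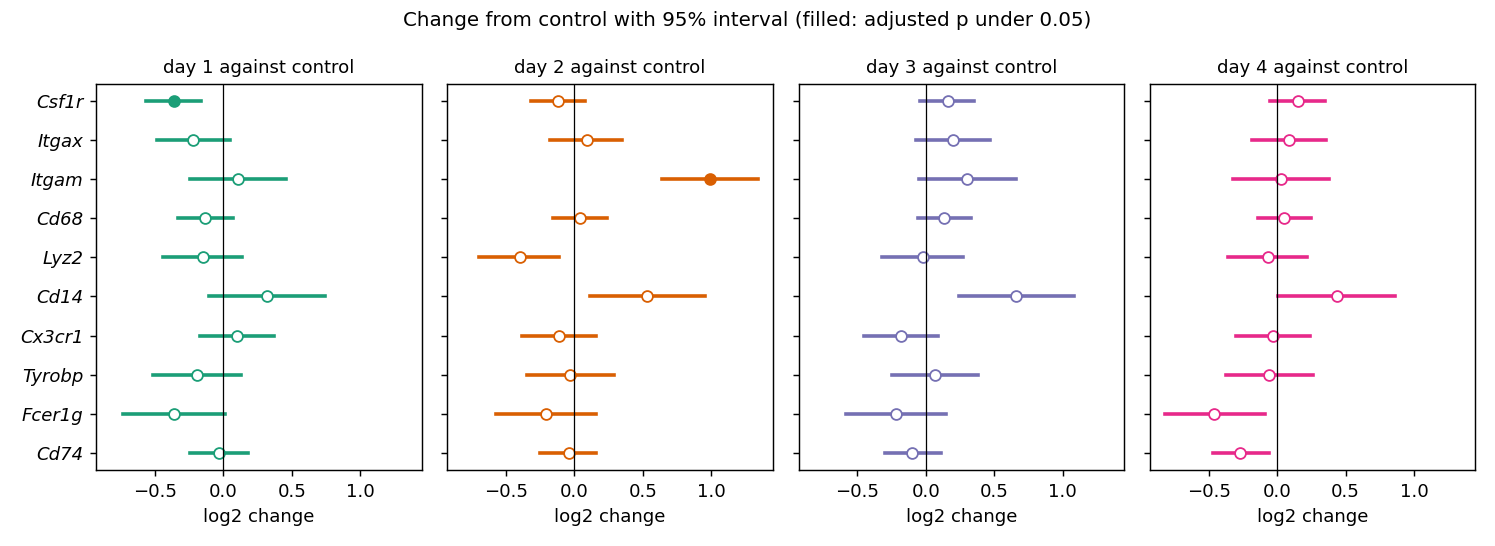
Difference from control on the log2 scale (horizontal axis) for each of the 10 genes on days 1 to 4; points are limma estimates and bars 95% intervals, filled points having an adjusted p under 0.05. Csf1r on day 1 (-0.36) and Itgam on day 2 (0.99) are the filled points, and the 4 Cd14 estimates lie between 0.32 and 0.66.

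The ITAM adaptors themselves did not pass the test. Tyrobp, which encodes DAP12, read 8.57, 8.10 and 8.01 in controls, 8.12 to 8.30 on day 2 and 8.13 to 8.20 on day 4. Its differences lay between -0.19 and 0.07. The 95% intervals of the measured signal, each taken for 1 day alone, reached at most 1.31-fold above control. Fcer1g, the common gamma chain of Fc receptors, read 8.45, 7.91 and 8.14 in controls. It was 7.65 to 8.04 on day 1, 7.77 to 8.07 on day 2, 7.62 to 8.27 on day 3 and 7.58 to 7.87 on day 4. Only the day 4 arrays lay below all controls, with a difference of -0.46 ± 0.17 (SE, n = 3; limma adjusted p = 0.376).

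A few genes of the pathway that ITAMs feed rose, and most did not pass the test. Of 21 measured ITAM receptors and signal transducers, 1 was called on day 1, 4 on day 2, 2 on day 3 and 2 on day 4, all higher. Of all genes, 2.0%, 1.52%, 1.72% and 0.818% were called higher on those days. The list's median change was 0.00, -0.02, -0.02 and -0.05 on the 4 days, so the calls belong to single members. Blnk, a linker downstream of Syk, rose from 7.84 to 7.90 in controls to 8.76 to 9.03 on day 2, by 1.04 ± 0.13 (SE, n = 3; limma adjusted p = 0.000455), and was called on all 4 days in every refit. Plcg2, the phospholipase that generates second messengers in these cells, rose by 0.48 on day 2 and 0.45 on day 3. It was called on day 4 as well (0.36, adjusted p = 0.035), a call lost in 11 of 25 refits with p-values of 0.0506 to 0.135, that is without any 1 control or day 4 array, RANKL day 1 replicate 3 or RANKL day 2 replicate 1, and in 3 other settings.

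Fgr, a Src-family kinase, rose by 0.86 on day 2 (limma adjusted p = 0.00962), a call lost without control replicate 1 (0.0513) and with only the 2 groups compared (0.0618). Syk rose by 0.69 on day 2 (adjusted p = 0.031). Its call was lost without control replicate 2 (0.113) or 3 (0.121), without RANKL day 2 replicate 1 (0.0624), 2 (0.0726) or 3 (0.111), with median centring (0.0967) and with only the 2 groups compared (0.0622). The Fc receptor gene Fcgr3, whose protein signals through Fcer1g, ran from 6.29 to 6.82 on the 15 arrays and was not called on any day.

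**Figure D3:**
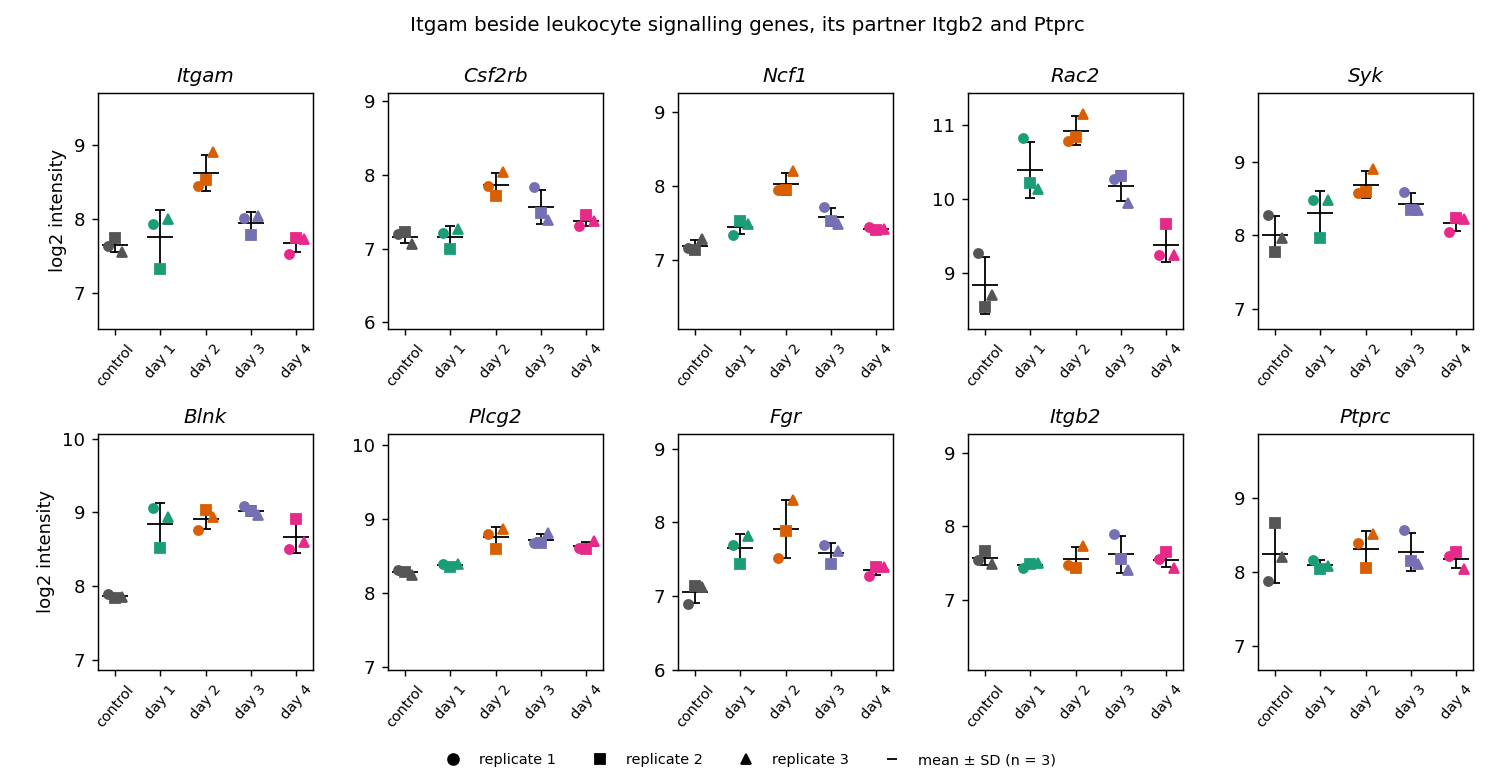
Log2 intensity (vertical axis, the same height in log2 units in every panel) of Itgam, 7 leukocyte signalling genes, its partner Itgb2 and the pan-leukocyte gene Ptprc; symbols are arrays and bars the mean ± SD of 3. Itgam, Csf2rb, Ncf1 and Rac2 have their highest mean on day 2, while Itgb2 (7.41 to 7.90) and Ptprc (7.88 to 8.67) show no such peak.

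Cd68, a glycoprotein of macrophage lysosomes, was among the least variable members. It ran from 7.35 to 7.88 over all arrays, with differences from control of -0.13, 0.04, 0.13 and 0.05 on the 4 days and intervals within -0.33 to 0.33. Lyz2 encodes the lysozyme of macrophages and neutrophils. It read 10.60, 10.42 and 10.44 in controls and 10.25, 10.31 and 9.70 on day 2, below all controls, with a difference of -0.40 ± 0.14 (SE, n = 3; limma adjusted p = 0.18). The lowest value, 9.70, was that of day 2 replicate 3. On the other days it read 10.15 to 10.58. Lyz1, a close paralogue made by Paneth cells, was named after its values were seen. It read 13.00 to 13.78 and differed by -0.44 on day 2 (adjusted p = 0.0463, lost in 17 of 25 refits at 0.0511 to 0.201, without any 1 array of the controls, of days 3 and 4, RANKL day 1 replicate 1 or RANKL day 2 replicate 1 or 3, and in 5 of the other settings). Near-identical sequence may be shared by both probe sets, and its part in the Lyz2 values was not tested.

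Cd74 is the invariant chain that escorts MHC class II molecules, which enterocytes as well as dendritic cells carry. It read 12.76, 12.90 and 12.73 in controls, 12.67 to 12.82 on day 1, 12.68 to 12.87 on day 2 and 12.59 to 12.84 on day 3. On day 4 it read 12.64, 12.62 and 12.34, below all controls, and the difference was -0.27 ± 0.10 (SE, n = 3; limma adjusted p = 0.355). Of 16 measured genes of class II presentation, 1 fell on day 1 (Ciita, the master regulator of class II genes) and 1 on day 3 (Rfxank, -0.33), 0 were called on days 2 and 4, and none was called higher. The list's median changes were -0.06, -0.10, -0.13 and -0.07. Ciita fell by 0.90 ± 0.21 on day 1 (adjusted p = 0.0258). That call was lost without control replicate 1 (0.104) or 2 (0.0804), without RANKL day 1 replicate 1 (0.0503), 2 (0.0537) or 3 (0.0798), and with median centring (0.0532). The call of Rfxank (0.0272) was lost in 9 of 25 refits, at 0.0622 to 0.165, that is without control replicate 1 or 3 or any 1 day 3 array, and in 4 other settings. H2-Aa, a chain of the class II molecule itself, differed by -0.05 on day 1 and -0.34 on day 4 (adjusted p = 0.484).

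The M cell programme moved on a different scale. Of 22 measured M cell and RANK target genes, 19, 21, 19 and 17 were called higher on days 1 to 4 and none lower, with median log2 changes of 1.57, 1.99, 1.37 and 1.18. The list holds genes known from RANKL-treated epithelium and was chosen with earlier results of these data known. Neither its direction nor the size of its changes is therefore independent evidence. Spib stood 23.7, 25.4, 13.4 and 5.49-fold above control on days 1 to 4. Gp2, the bacterial uptake receptor of mature M cells, was not called on day 1 and stood 13.4, 30.9 and 10.0-fold above control on days 2 to 4. For 39 of the 40 member-by-day differences the size was under 0.7, and the highest upper bound of any 95% interval other than those of Itgam and Cd14 was 0.47, for Itgax. Aif1, a macrophage gene that M cells also express, read 6.07 to 6.97 and rose by 0.58 on day 2 (adjusted p = 0.0217), a call lost without control replicate 2 (0.0838) or 3 (0.0786) or RANKL day 2 replicate 1 (0.0571), 2 (0.0512) or 3 (0.0847).

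**Figure D4:**
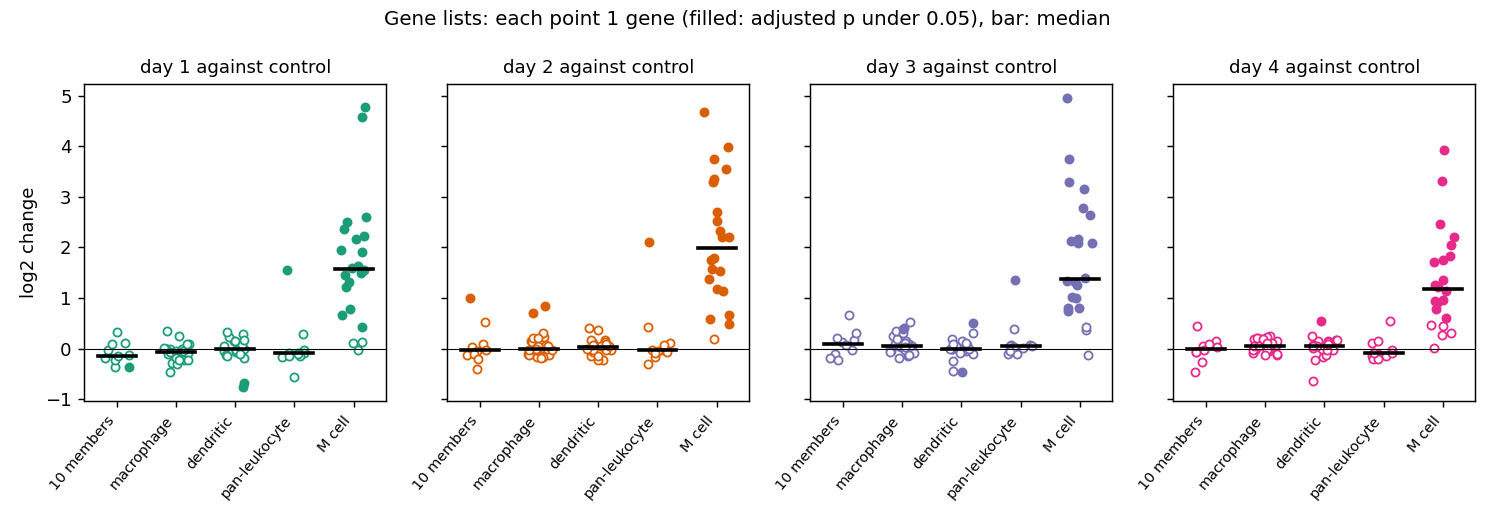
Difference from control on the log2 scale (vertical axis) for the genes of 5 lists on days 1 to 4; each point is 1 gene, filled where the adjusted p is under 0.05, and bars are list medians. The M cell list has medians of 1.18 to 1.99, while those of the 10 members lie between -0.14 and 0.10.

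Wider lists of macrophage, dendritic cell, monocyte and neutrophil markers stayed near 0 in their medians. Of 27 macrophage markers, 0, 2, 1 and 0 were called higher on days 1 to 4 and none lower, with medians of -0.06, 0.00, 0.06 and 0.06. Both day 2 calls, Csf2rb, the shared receptor chain for GM-CSF (0.70 ± 0.12, adjusted p = 0.00484), and Ncf1, a subunit of the phagocyte NADPH oxidase (0.84 ± 0.09, adjusted p = 8.59e-05), held in every refit. The day 3 call was Ncf1 again (0.39, adjusted p = 0.0309), lost in 8 of 25 refits at 0.0515 to 0.103, that is without any 1 control or day 3 array and in 2 other settings. The defining marker Adgre1 (F4/80) read 5.68 to 6.13 on all arrays, little above the 4.88 to 5.50 of 3 Y chromosome genes. Those mark the background of this array here because Xist read 11.93 or more throughout. C1qa, a complement gene of tissue macrophages, read 7.27 to 8.07 and was not called.

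Of 20 dendritic cell markers, Irf8 and Ly75 fell on day 1, Sirpa rose and Ly75 fell on day 3, and Sirpa rose on day 4. Irf8, a transcription factor of dendritic cells that enterocytes also express, fell by 0.68 on day 1 (adjusted p = 0.03), a call lost without control replicate 1 (0.108) or 2 (0.115) or RANKL day 1 replicate 1 (0.05) or 3 (0.106), and with only the 2 groups compared (0.185). Ly75, an endocytic receptor, fell by 0.75 on day 1 (adjusted p = 0.00116, or 0.0554 with only the 2 groups compared) and by 0.47 on day 3 (0.0329). The day 3 call was lost without control replicate 2 (0.109) or 3 (0.112) or RANKL day 3 replicate 1 (0.0928) or 2 (0.119), and in 3 other settings at 0.0918 to 0.17. Sirpa changed by 0.51 on day 3 and 0.55 on day 4, calls lost in 6 and 12 of 25 refits, at 0.0507 to 0.11 and 0.0518 to 0.204. On day 3 these left out a control array or RANKL day 3 replicate 1 or 3, and on day 4 any 1 array of the controls, day 2 or day 4, or RANKL day 3 replicate 3, beside 1 and 2 other settings. The markers of conventional dendritic cells Flt3 (6.38 to 6.79), Zbtb46 (6.60 to 6.95), Xcr1 (6.58 to 6.85) and Clec9a (6.19 to 6.44) were nearly level over the 15 arrays. All of them read below the log2 array medians of the deposited values (7.20 to 7.38), nearer the background, where a change of signal is understated. Their level readings do not show that dendritic cells were unchanged.

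Of 16 monocyte and neutrophil markers 1 was called, Plac8, which fell on day 1 (-0.49, adjusted p = 0.0468, lost in 15 of 25 refits at 0.0539 to 0.144, without any 1 array of the controls, day 1 or day 2, RANKL day 3 replicate 2 or 3 or RANKL day 4 replicate 1, and in 3 other settings). S100a8, a neutrophil granule gene, read 5.88 to 6.14. The summed intensity of that list ran from 4678 to 5254 in controls, 3737 to 4052 on day 1, 5127 to 5441 on day 2, 4664 to 5551 on day 3 and 3838 to 5197 on day 4. Plac8, at 11.34 to 12.08, makes up most of this sum, since no other gene of the list read above 7.37 (Il1b). The sum without Plac8 was not taken. Median changes of the list were 0.00, 0.06, 0.08 and 0.03 on the 4 days.

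Pan-leukocyte markers show what moved beside Itgam. Of 11, only Rac2, a GTPase of the phagocyte oxidase, was called, by 1.56 on day 1, 2.10 on day 2 and 1.35 on day 3, higher each time and in every refit. Ptprc, which encodes CD45, read 7.88 to 8.67 in controls and 8.05 to 8.52 on day 2, a difference of 0.07 (adjusted p = 0.953). The summed intensity of the 11 ran from 3084 to 3716 in controls and 4514 to 5510 on day 2. For the 10 without Rac2, left out after its values were seen, it ran from 2670 to 3347 and 2677 to 3240. Rac2 was the only gene of the list called, so a sum without it was bound to change less and tests nothing. In bulk samples such as these, a change in the number of cells of a type, up or down, and a change in RNA per cell cannot be told apart. The part of leukocytes in the Itgam change was not tested.

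Icam1, a ligand of the Itgam and Itgax integrins that epithelium itself can make, was the only one of 17 ligands and partners called. It rose by 1.84, 1.46, 1.15 and 0.84 on days 1 to 4 (SE 0.09, n = 3; limma adjusted p from 1.97e-07 to 0.000408). The list includes Fcer1g, itself a member, as the partner of Fc receptors. The list's median change was -0.03, 0.01, 0.05 and 0.02.

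In controls, on day 3 and on day 4, most of the 10 genes were highest on the same array of the group. Day 3 replicate 1 held the highest of its group for 8 of the 10 and the lowest for 0, where 41.5% of all genes were highest on it. It was also highest for 10 of 11 pan-leukocyte, 14 of 20 dendritic and 15 of 27 macrophage markers. The same held for 14 of 16 T cell and intraepithelial lymphocyte markers and 8 of 9 B and plasma cell markers, so the pattern was not particular to myeloid genes. Of stromal markers 3 of 12 were highest there, and of M cell genes 4 of 22. Control replicate 1 held the highest control value for 7 of the 10, against 34.8% of all genes, and for 16 of 27 macrophage but 4 of 11 pan-leukocyte markers. On day 4 replicates 1, 2 and 3 held the highest value for 1, 6 and 3 genes. Of all genes, 31.9% were highest on day 4 replicate 2, as were 8 of 11 pan-leukocyte but 9 of 27 macrophage markers. That array was also highest for 12 of 16 T cell and intraepithelial lymphocyte markers, 7 of 9 B and plasma cell markers and 17 of 22 M cell genes, but for 5 of 20 dendritic markers. On days 1 and 2 the highest values were spread more widely, over replicates 1, 2 and 3 as 3, 2 and 5 genes on day 1 and 1, 4 and 5 on day 2. On day 2 47.8% of all genes were highest on replicate 3. Itgam and Cx3cr1 were the exceptions on day 3 replicate 1, with their group's highest value on replicates 3 and 2. Without day 3 replicate 1 the day 3 count of called members was 0, as with it.

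The label of the samples as epithelium was checked on 10 epithelial markers, of which none was called on any day. Epcam read 11.63 to 11.99, Cdh1 11.88 to 12.21 and Vil1, a brush border protein gene, 12.33 to 12.80. Median intensity per array ran from 147 to 167, and the number of arrays limits the precision.

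**Figure D5:**
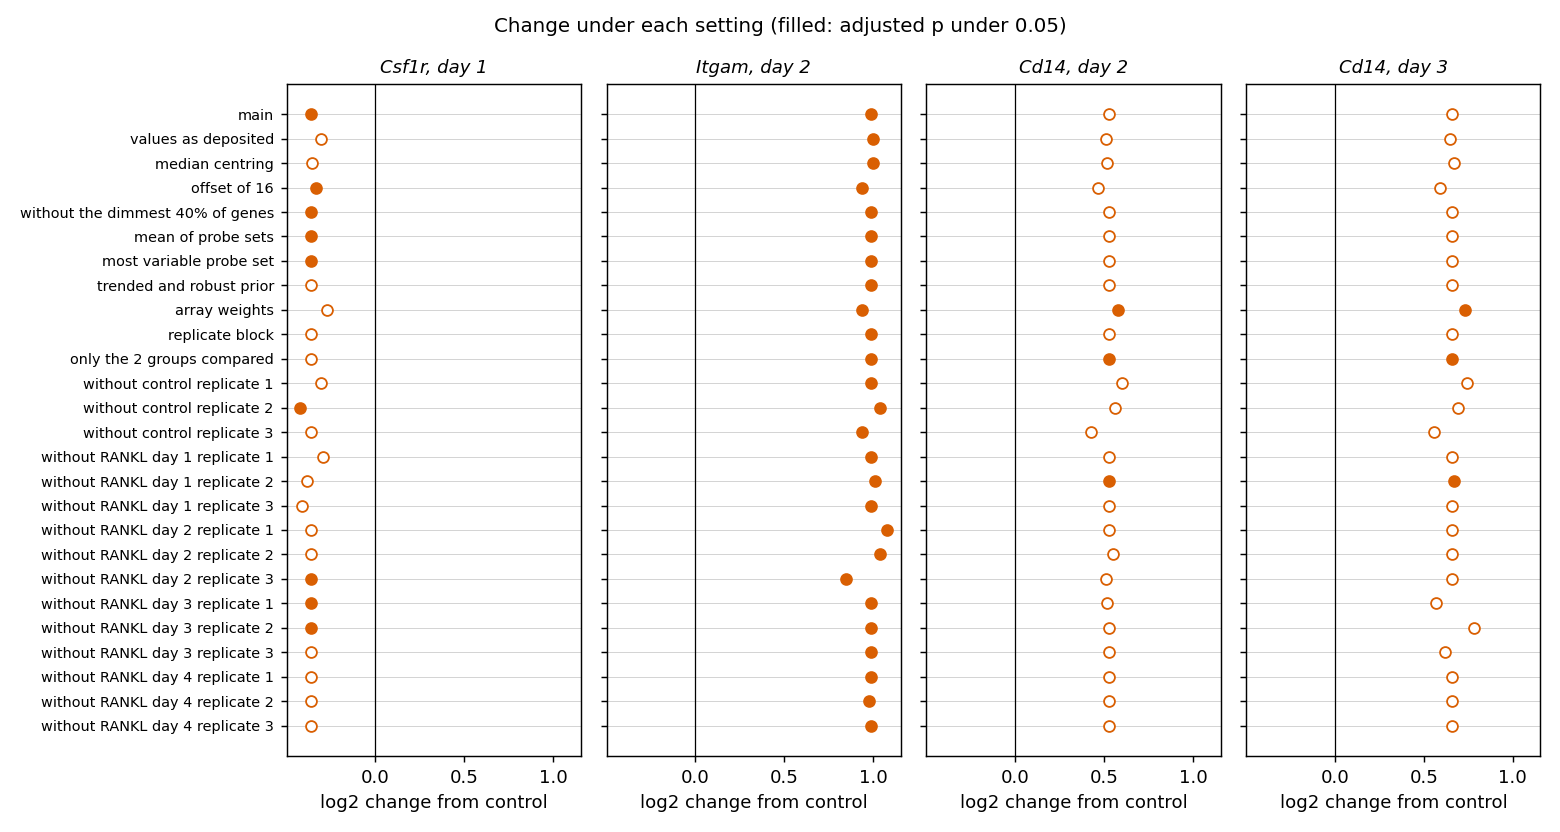
Log2 difference from control (horizontal axis) under the main setting and each alternative (rows) for Csf1r on day 1, Itgam on day 2 and Cd14 on days 2 and 3; filled points have an adjusted p under 0.05. Itgam is filled in every row (0.85 to 1.08), Csf1r in 8 of 25 alternatives, and Cd14 in 3 of 25 on each day.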

How the data were processed

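Gene expression was measured on 15 arrays with biotinylated target, per the labels' protocols. The deposited values are the authors' linear intensity for each of 28853 probe sets, from 25.95 to 24106.7. The submitters' processing notes name the build mm9, while the steps before it (background correction, summarisation, normalization) are not stated there and were not known here. Values were taken to log2 with offset 0 and, because array medians ranged over 0.18 (limit 0.1), quantile normalized. Probe sets with 1 symbol numbered 21789, with several 1621 and without one 5443. The highest mean over the arrays chose 1 probe set for each of 19938 genes, and none was filtered.

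One limma 3.58.1 model in R 4.3.3, with 1 mean per group and no block, left 10 residual and 3.49 prior degrees of freedom. Tests were two-sided, with Benjamini-Hochberg adjustment over all genes in each contrast, and called under 0.05. The fit was also run on simulated data with independent noise on each array. Those data hold no outlying array and no arrays that vary together, so they do not test these cases. As alternatives, the fit was run on the values as deposited or median centred, after adding 16 before log2, on genes other than the dimmest 40%, with the mean or most variable probe set, a trended and robust prior, array weights, or the replicate number as a block, on the 2 groups alone, and without each array in turn. Members, lists and rules were chosen with earlier results of these data known. All 10 members were named, and of the other lists up to 4 called genes with the largest change, defining markers and direct partners. Lists are described by counts and medians. For 6 members promoters came from RefSeq (GRCm38.p6).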

Additional observations from a re-analysis of the deposited data

How the results depend on the processing

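Over 25 alternatives for each of the 40 member-by-day differences, 948 of 1000 refits kept direction and call, 17 lost a call (Csf1r on day 1), 8 gained one (Cd14) and 27 changed sign. The cause of the changed calls and signs was not tested. Counts of called members were 1, 1, 0 and 0 on days 1 to 4. On day 1 the count was 0 with the values as deposited, median centring, the trended and robust prior, the replicate block and only the 2 groups compared, where Csf1r had adjusted p-values by limma of 0.191, 0.0862, 0.0718, 0.0557 and 0.225. With array weights it was 1, Cd14 in place of Csf1r, but the weights did not converge fully. Array weights and only the 2 groups compared gave 2 on day 2 and 1 on day 3, through Cd14. Leaving out 1 array gave 0 to 1 on day 1, 1 to 2 on day 2, and 0 to 1 on day 3. The F test, at 2 here, gave 1 to 3 with 1 array left out, 1 with the values as deposited and 3 with array weights. From day 1 to day 2 the count was 0, and 1 with the dimmest genes left out, the trended and robust prior, array weights and the replicate block.

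Changes of sign were all of differences of 0.13 or less. With array weights Cd68 on day 1 was 0.04, Cx3cr1 on day 1 -0.01, and Tyrobp 0.03 on days 2 and 4. Lyz2 on day 3 was 0.01 as deposited and 0.03 with median centring, and on day 4 0.03 with the latter. Tyrobp on day 4 was 0.01 as deposited and 0.04 with median centring, with which Cx3cr1 on day 4 was 0.01. With 1 array left out the ranges that crossed 0 were -0.01 to 0.34 for Itgam, -0.09 to 0.24 for Cx3cr1 and -0.07 to 0.02 for Cd74 on day 1, and -0.03 to 0.11 for Cd68, -0.14 to 0.14 for Tyrobp and -0.10 to 0.01 for Cd74 on day 2. On day 3 they were -0.08 to 0.03 for Lyz2 and -0.11 to 0.24 for Tyrobp, and on day 4 -0.02 to 0.10 for Itgam, -0.01 to 0.12 for Cd68, -0.08 to 0.02 for Cx3cr1 and -0.16 to 0.11 for Tyrobp.

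The labels do not say whether arrays of the same number share a mouse, litter or day, so the numbers were not used as pairs. Deviations from group means correlated at -0.20 to 0.50 (median 0.14, 19 above 0.1) over 30 same-number pairs and at -0.45 to 0.41 (median -0.07, 12 above 0.1) over 60 others, and 12 of 15 arrays were closest to their own number, a hint from the data, not the design. The replicate block gave counts of 0, 1, 0 and 0 members on days 1 to 4 and 1 from day 1 to day 2, where it called 69 genes against 40, and changed no other count of members. Genes called over the 25 alternatives ran from 269 to 1517 on day 1 (785 here), 283 to 930 on day 2 (513), 236 to 1322 on day 3 (590) and 95 to 336 on day 4 (181). Members at 6 to 8 on the log2 scale lie nearer the background, where a change of signal is understated.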

Other observations

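Other cell types that an epithelial peel can hold were read from lists beside the members. None of 16 measured T cell and intraepithelial lymphocyte markers was called on any day, with median changes of -0.17, -0.13, -0.10 and -0.36 and a summed intensity of 9788 to 12274 in controls and 6974 to 9094 on day 4. Of 15 mast cell, basophil and eosinophil markers Ccr3, an eosinophil chemokine receptor gene, rose by 1.00 ± 0.15 on day 2 (SE, n = 3; limma adjusted p = 0.00198), and Kit by 0.61 on day 3 (adjusted p = 0.0409, lost in 11 of 25 refits at 0.0502 to 0.152, without any 1 control or day 4 array, RANKL day 1 replicate 3, RANKL day 2 replicate 2 or RANKL day 3 replicate 1 or 3, and with median centring). None of 9 B and plasma cell or 8 endothelial markers was called. Of 12 stromal markers Vim fell by 0.40 on day 1 (adjusted p = 0.0313), a call lost in 9 of 25 refits at 0.0569 to 0.106, that is without any 1 control or day 1 array and in 3 other settings.

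The genes whose values over the 15 arrays were most like those of Itgam were Ces2f, a carboxylesterase gene (Pearson r = 0.909), Clca2 (0.87) and Csf2rb (0.867). For Csf1r they were Adgre5, a leukocyte adhesion receptor gene (0.935), Plcb2 (0.919) and Smpd3 (0.892). These are descriptions over arrays that share groups and were picked as the highest among all genes.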
